A study of Mus musculus with 2 samples.

Results

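Jak kinases and Stat transcription factors relay the signals of cytokine receptors to the nucleus. The kinases are attached to the receptor tails, and upon ligand binding they phosphorylate Stat proteins, which pair, enter the nucleus and bind DNA. In developing T cells, the receptor for interleukin 7 signals through Jak1, Jak3, Stat5a and Stat5b, while Stat4 and Stat6 act in the choice between helper T-cell fates.

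The binding of Dlx5 was examined at 9 of these genes, the 4 Jak genes Jak1, Jak2, Jak3 and Tyk2 and the 5 Stat genes Stat3, Stat4, Stat5a, Stat5b and Stat6, out of 21887 protein-coding genes of the mouse RefSeq table. The genes were chosen by name, with earlier results of these data known. An interval was counted at a gene if 1 bp or more of it fell in the gene body or in the 10 kb flanking each end. On that basis, 7 of the 3477 Myc-Tag intervals lay at 4 of the 9 genes.

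The data are from chromatin immunoprecipitation sequencing (ChIP-seq) of a T-cell lymphoma of a Lck-Dlx5 transgenic mouse, in which a Lck promoter drives the Dlx5 homeobox gene in thymocytes. The Dlx5 protein carries a Myc-Tag, by which the antibody recovered it. There was 1 Myc-Tag ChIP library and 1 input library, both labelled as primary tumor, the first of strain C57BL/6 and the second of strain C57BL/7, whereas the methods name a single lymphoma cell line and an IgG control. Neither library had a replicate, so no difference in height below has a replicate check. The deposited height of a summit, the highest point of an interval, is a whole number with no stated normalization, and the depth is unknown, since totals of reads were not analysed here. The heights of all Myc-Tag summits ranged from 9 to 301 with a median of 16. The input library had 28 intervals, none of which overlapped an interval at a Jak or Stat gene. As to the labelled cell type, intervals counted in this way were found at 5 of 10 T-cell marker genes, for 2 of which, Cd3g and Cd4, the tallest summit was nearer to another gene. For Cd3g that gene was Cd3d, itself a marker, so that interval was counted at both. Cd3g had 2 intervals, and the summit closest to its listed start was 322 bp from it. Lck and Cd3d had summits of 17 and 15 within the gene, and Cd8b1 had one of 14 at 116 bp outside it. The Lck summit was 220 bp from a listed start, and the part of the transgene's Lck promoter in it was not tested. Cd3e, Cd8a, Thy1, Cd2 and Cd5 had no interval. Intervals were found at 2 of 8 B-cell and myeloid markers, both nearer to another gene, and at 19.0% of all protein-coding genes, a share close to that of the B-cell and myeloid markers.

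Coordinates are those of mm10, the assembly also known as GRCm38. Because the processing notes of the submitters name mm9 whereas a browser view of the study is labelled mm10, the fit was checked on the data. With GRCm38 starts, 51.9% of all Myc-Tag summits lay within 1 kb of a listed transcription start of a protein-coding gene. Around the genes described here, summits lay 141 bp from the start of Unc13a, 30 bp from that of the noncoding RNA gene Gm31812 and 37 bp outside the annotated end of Fdx2.

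At the Jak genes, 2 of 4 had an interval, and at the Stat genes 2 of 5. Together, these 4 of 9 genes compare with 4168 of all 21887 protein-coding genes (19.0%) that had an interval by the same rule. Of the 7 intervals, 5 lay inside Jak1, Stat4 and Stat5b, at least 11.1 kb from any listed transcription start. The other two lay outside Jak3 and Stat4 and at the start of a neighbouring gene. No summit lay within 1 kb of a listed start of any of the 9 genes. Among the 17492 protein-coding genes with a listed start, 11.4% had one. At that share a group of only 9 genes can readily have none, so the count does not set these genes apart.

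**Figure D1:**
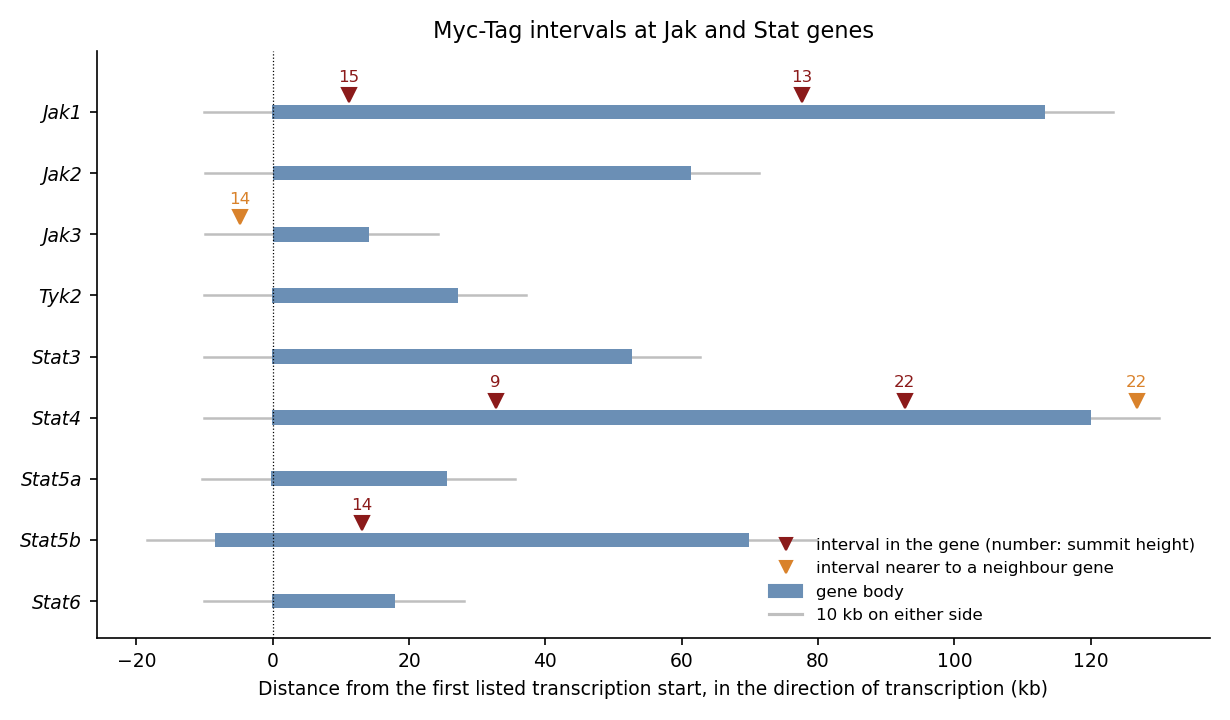
Positions of Myc-Tag intervals at the 9 Jak and Stat genes, plotted as kb from the first listed transcription start of each gene in the direction of transcription. Bars are gene bodies, thin lines the 10 kb on either side and triangles summits with their deposited heights, and the 2 orange triangles, at Jak3 and past the end of Stat4, mark intervals nearer to a neighbour gene.

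Part of the sequence under each of the outer intervals is shown, the bases next to the start of another gene, because the assignment to Jak3 and Stat4 rests on distance alone. They are RefSeq promoter sequences of GRCm38.p6, written 5′ to 3′ on the strand of the neighbouring gene, up to the base before its transcription start. The first lies at chr8:71671758-71671945 and the second at chr1:52113891-52114140, both on the minus strand. Capitals would mark TAATT, the binding motif that the study names for the Dlx family, on either strand, and neither of the stretches, 188 of the 656 bp and 250 of the 790 bp of these intervals, held it. The Gm31812 stretch includes the summit, whereas the Unc13a stretch does not include that at 71671616, so the absence of TAATT there does not cover the summit.

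Unc13a, in the interval counted at Jak3: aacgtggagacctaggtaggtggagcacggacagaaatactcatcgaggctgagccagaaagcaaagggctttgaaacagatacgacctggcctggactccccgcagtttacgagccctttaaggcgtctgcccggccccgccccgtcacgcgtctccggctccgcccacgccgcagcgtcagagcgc
Gm31812, in the interval past the end of Stat4: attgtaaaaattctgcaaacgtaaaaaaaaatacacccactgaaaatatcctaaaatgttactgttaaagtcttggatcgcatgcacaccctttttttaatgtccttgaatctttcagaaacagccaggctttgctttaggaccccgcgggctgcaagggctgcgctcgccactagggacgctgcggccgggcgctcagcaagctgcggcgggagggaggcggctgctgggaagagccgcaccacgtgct

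Jak1, the kinase shared by most cytokine receptor families, had 2 intervals, both within the gene. The gene lies on chromosome 4 from 101151974 to 101265282 on the minus strand and is 113 kb long. The interval at 101253818 to 101254489 reached 15 in height at its summit, 101254080, which is 11.1 kb downstream of the transcription start. The interval at 101187227 to 101187874 reached 13 at its summit, 101187552, which is 77.7 kb downstream of the start. Both heights were below the median of 16, and 1739 and 2464 of all 3477 Myc-Tag summits, respectively, exceeded them. The intervals were 672 and 648 bp wide, their summits were 66.5 kb apart, and neither overlapped another annotated gene. Exons were not analysed here, so whether the summits are exonic or intronic is not given.

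Jak3, the kinase that pairs with the common gamma chain receptor and is largely restricted to blood cells, had 1 interval, which lay outside the gene. Jak3 is a short gene of 14.2 kb on chromosome 8, from 71676383 to 71690577 on the plus strand. The interval from 71671290 to 71671945, 656 bp wide with a height of 14, had its summit at 71671616, so that it was upstream of Jak3. Unc13a, which encodes a protein that primes synaptic vesicles, spans 71624125 to 71671774 and holds this summit, 141 bp inside its transcription start on the minus strand. The interval was therefore nearer to Unc13a than to Jak3, and it is the only interval at Unc13a by the same rule.

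Jak2 and Tyk2 had no interval. At Jak2, which serves the receptors of erythropoietin, growth hormone and related ligands, the nearest summit was 188 kb from the gene on chromosome 19, with a height of 18, and its nearest protein-coding gene was the adenylate kinase gene Ak3. At Tyk2, which serves the receptors of type I interferons and interleukin 12, the nearest summit was 30.5 kb from the gene on chromosome 9. This summit had a height of 30, exceeded by only 4.17% of all Myc-Tag summits, and lay 37 bp outside the ferredoxin gene Fdx2. No call was made within 10 kb of either gene, which does not show that binding was absent.

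Stat4, the factor activated by interleukin 12, had 3 intervals, the most of the 9 genes. Among all protein-coding genes, of any length, 124 (0.567%) had at least 3. Of the 3 at Stat4, 2 overlapped the gene body, and the share among genes of like length was not computed. Stat4 is also the longest of the 9, at 120 kb on chromosome 1 from 51987106 to 52107189 on the plus strand, and it has 2 listed transcription starts. The interval at 52019727 to 52020147 was only 9 high, the lowest height in this library, found at 16 summits, and its summit was 32.7 kb downstream of the first start and 11.6 kb from the nearer one. The interval at 52079651 to 52080211 was 22 high, and its summit at 52079840 was 92.7 kb downstream of the first start. The interval at 52113380 to 52114169 was 22 high as well, and its summit at 52113920 was 6731 bp past the end of the gene. Thus the Stat4 intervals held both the lowest and the highest summits at the Jak and Stat genes, and 13.7% of all Myc-Tag summits exceeded a height of 22.

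The third of these intervals lay at the start of another gene. Its summit was 30 bp upstream of the start of Gm31812, a long noncoding RNA gene on the minus strand that spans 52107175 to 52113890. The summits of the 3 intervals were 59968 and 34080 bp apart, in order along the chromosome.

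Stat3, Stat5a and Stat5b are neighbours on chromosome 11, and the locus of 159 kb that they form held a single interval. It lay inside Stat5b, one of a pair of closely related factors that carry the signals of interleukin 2 and interleukin 7. Stat5b spans 100780731 to 100859004 on the minus strand, and the interval from 100837332 to 100837846, 515 bp wide with a height of 14, had its summit 13029 bp downstream of the first listed start. The adjacent summits on the chromosome were 218 kb and 172 kb from it. Stat5a, on the plus strand, lies head to head with Stat5b, with 346 bp between the genes, and was 21.8 kb from this summit, and Stat3, the factor activated by interleukin 6 and related cytokines, was 49.3 kb from it. By the 10 kb rule neither Stat5a nor Stat3 had an interval.

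Stat6, which is activated by interleukin 4, was the farthest from any summit. The nearest on chromosome 10 was 304 kb away, with a height of 16, and lay inside Gli1, a transcription factor gene of Hedgehog signaling.

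The 7 heights had a median of 14 against 16 for all Myc-Tag summits. In all, 5 were below the median, the 2 of height 22 above it, and none reached 30. The widths ranged from 421 to 790 bp with a median of 648 bp, and 6 of the 7 intervals were narrower than the median of all, 752 bp. For comparison, 703 of all 3477 summits (20.2%) lay inside a protein-coding gene and more than 10 kb from a listed coding start, as 5 of the 7 did. The 7 were counted because they lay in a gene or within 10 kb of it. The 3477 also include summits away from genes, so these shares do not have the same base. Those 703 had a median height of 16 and a median width of 704 bp, against 15 and 818 bp for the summits within 1 kb of a coding start.

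**Figure D2:**
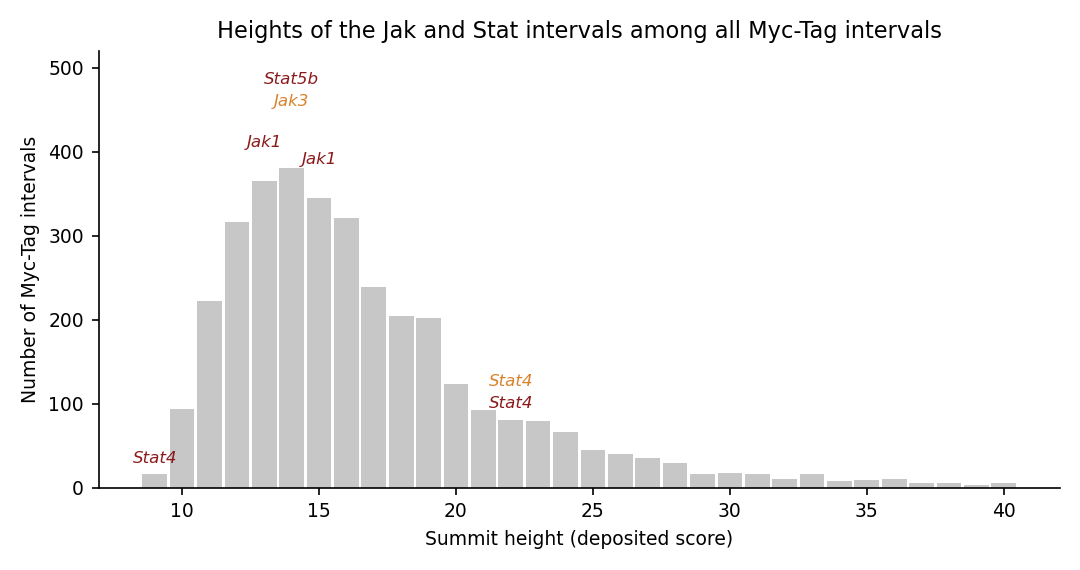
Number of Myc-Tag intervals at each deposited summit height up to 40, with the 7 intervals at Jak and Stat genes named above the bar of their height. 53 taller summits of the library are not drawn. Orange names mark the 2 intervals nearer to a neighbour gene, and 5 of the 7 names sit at heights of 9 to 15, below the median of 16.

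The members with an interval inside the gene were the 3 longest of the 9, Stat4, Jak1 and Stat5b, of 120, 113 and 78.3 kb. The part of gene length in this was not tested. Jak2 and Stat3, of 61.3 and 52.8 kb, had none, and neither did the 4 genes of 14.2 to 27.3 kb within their bodies. Thus 3 of the 5 members of at least 50 kb had an interval, inside the gene in each case. Of all 4945 protein-coding genes of at least 50 kb, 21.6% had an interval in the body or within 10 kb and 17.6% had one in the body. Over protein-coding genes of any length, these shares were 19.0% and 13.4%. The limit of 50 kb was set after the lengths and intervals were seen.

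The distance from a listed transcription start to the nearest summit ordered the genes as follows. It was 4.77 kb at Jak3, 11.1 kb at Jak1, 11.6 kb at Stat4, 13029 bp at Stat5b and 22.1 kb at Stat5a. It was 57.7 kb at Tyk2, 69.8 kb at Stat3, 188 kb at Jak2 and 304 kb at Stat6. Of all protein-coding genes, 12.9% had a summit closer to a start than Jak3 did, and 64.1% closer than Stat6. The median was 22.1 kb for the 9 genes and 152 kb over the 17492 genes with a listed start. So 7 of the 9 genes had a start closer to a summit than the median gene, and none had a summit within 1 kb of a start. Neighbouring genes share these distances, as a single summit was the nearest one for Stat5b and Stat5a. The summits nearest to Jak3 and Tyk2 lay at Unc13a and Fdx2. The part of gene neighbourhood in these distances was not tested.

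**Figure D3:**
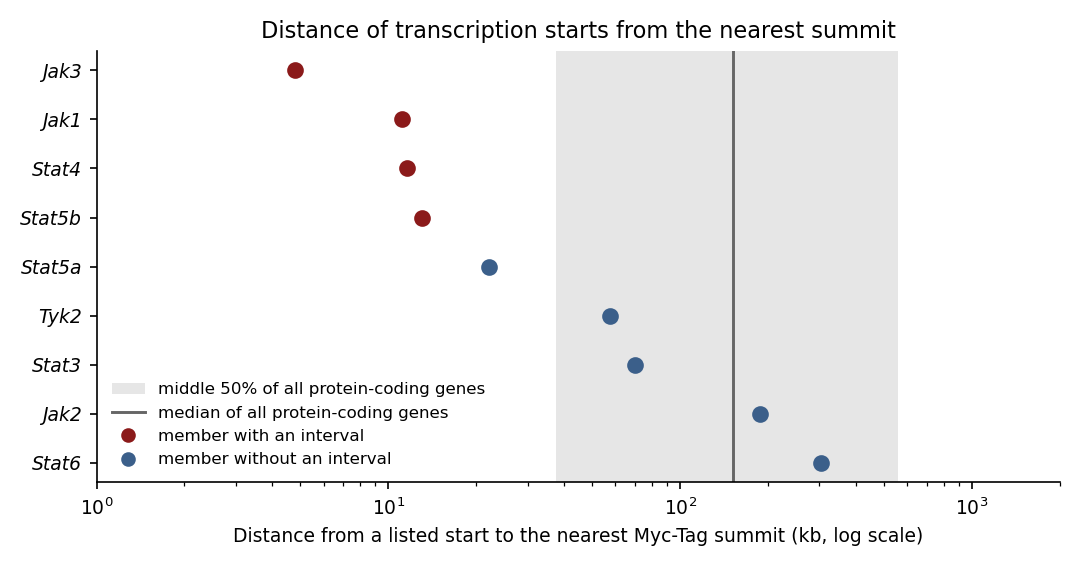
Distance from the nearest listed transcription start of each of the 9 genes to the nearest Myc-Tag summit, in kb on a log scale. The grey band spans the middle 50% of all protein-coding genes with a listed start, from 37.6 to 558 kb, the line is their median of 152 kb, and all 9 points lie between 4.77 and 304 kb.

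The promoter sequences of the 9 genes were then examined, although no interval overlapped them. RefSeq listed 12 starts for the 9 genes, each with a window of 250 bases before and 50 bases after the start. TAATT, searched on both strands, was in 2 of the 12 windows, those of Jak3 and Stat3. Over all 32851 windows it was in 27.0%, and in the 2383 windows that a Myc-Tag interval overlapped it was in 14.1%. These 2383 windows had a median GC content of 63.3%, against 52.7% for all, and the part of base composition in this difference was not tested. By its own motif search, the study assigned most Dlx5 consensus binding to TAATT. The windows here are promoter sequences that an interval overlapped, not the sequences of the intervals, so the 14.1% does not measure that result. TTCNNNGAA, the letters that Stat dimers are known to bind, was in none of the 12 windows and in 8.30% of all. The GC content of the 12 windows ranged from 46.0% at the second start of Stat4 to 82.7% at the first start of Stat5b, and 9 of them were above the median of all. A match of letters is a description, and the absence of a match says nothing about binding elsewhere in the gene.

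The sequences that held TAATT are shown with the motif in capitals. That of Jak3 lies at chr8:71676133-71676382 on the plus strand and ends before the start, with the motif beginning 207 bases upstream. That of Stat3 lies at chr11:100939531-100939560 on the minus strand and runs from 20 bases before the start to base 10 of the transcript, where both strands hold the motif in an overlapping pair.

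Jak3: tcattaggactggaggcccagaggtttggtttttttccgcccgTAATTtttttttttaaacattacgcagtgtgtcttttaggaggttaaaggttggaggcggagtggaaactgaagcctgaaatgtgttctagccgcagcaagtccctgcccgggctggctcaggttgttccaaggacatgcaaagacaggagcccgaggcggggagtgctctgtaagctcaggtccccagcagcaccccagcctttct
Stat3: tagccagctggccattcctTAATTAtgcat

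The nearest summit to the Jak3 motif was that in Unc13a described above, and the nearest to the Stat3 start was 69.8 kb away. Thus neither of the members with this motif at the start had an interval there.

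Other genes of the pathway were taken from 4 lists of 76 different genes, of which 27 (35.5%) had an interval by the same rule, against 19.0% of all protein-coding genes. The lists were chosen with earlier results of these data known, so their shares are a description only. For 6 of these 27, the tallest summit was nearer to another gene. Of the cytokine receptor chains, 7 of 25 had an interval, with tallest summits of 12 to 20. The highest was at Il6ra, the receptor of interleukin 6, with a height of 20 inside the gene. Next, Il12rb2, which signals through Stat4, had 17 inside the gene, and Epor, the erythropoietin receptor, had 17 but nearer to Swsap1. Il2ra, the high-affinity chain for interleukin 2, had 16 at 6653 bp outside the gene. Il7r, Il2rg and Il2rb, which signal through Jak1, Jak3 and Stat5, were among the chains without an interval, and they are named here after their values were seen. Of the 19 receptor genes with a listed start, 1 had a summit within 1 kb of it, Il6st, likewise named after its value was seen.

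Of 21 inhibitors, 8 had an interval, with tallest summits of 10 to 18. The highest were at Socs4 with 18 and at Ptpn6 with 17, both nearer to another gene, and at Pias3, Ptpn2 and Ptprc with 16 each. The Pias3 summit was nearer to Nudt17, while those of the phosphatase genes Ptpn2, which dephosphorylates Jak and Stat proteins, and Ptprc, which encodes CD45, lay inside the genes. Of 16 adaptors and nuclear partners, 7 had an interval, and 5 of the 13 with a listed start had a summit within 1 kb of it, against 11.4% of all protein-coding genes with a listed start. Such a summit was found at 1 of 14 inhibitors and at 3 of 15 of the genes induced by Stat factors described next. Crebbp, a histone acetyltransferase and coactivator of Stat factors, had the tallest at 41, nearer to Trap1. Stam2 and Stam, adaptors that bind Jak kinases, had summits of 32 and 29 at distances of 123 and 132 bp from their starts. Ep300, the paralog of Crebbp, had 18 at 294 bp from its start.

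Of 18 genes known to be induced by Stat factors in lymphocytes, 6 had an interval, with tallest summits of 12 to 20. Mcl1, a survival gene of the Bcl2 family, had 20 at 127 bp from its start, and Il2ra had 16 at 6653 bp outside the gene. Ccnd3, which encodes cyclin D3, had 15 at 1317 bp from its start. The kinase gene Pim1 had 14 at 1441 bp outside the gene, and its other summit was 63 bp from its start. The T-cell factor gene Gata3 had 14 at 1519 bp outside the gene. Socs1, Socs3 and Cish, genes of the Socs family known as direct Stat targets, were among those without an interval, and they too are named after their values were seen. No interval at a gene of these lists was called in the input. The genes of a list differ in length and in gene neighbourhood, so the shares describe these lists and do not set them apart from other genes.

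**Figure D4:**
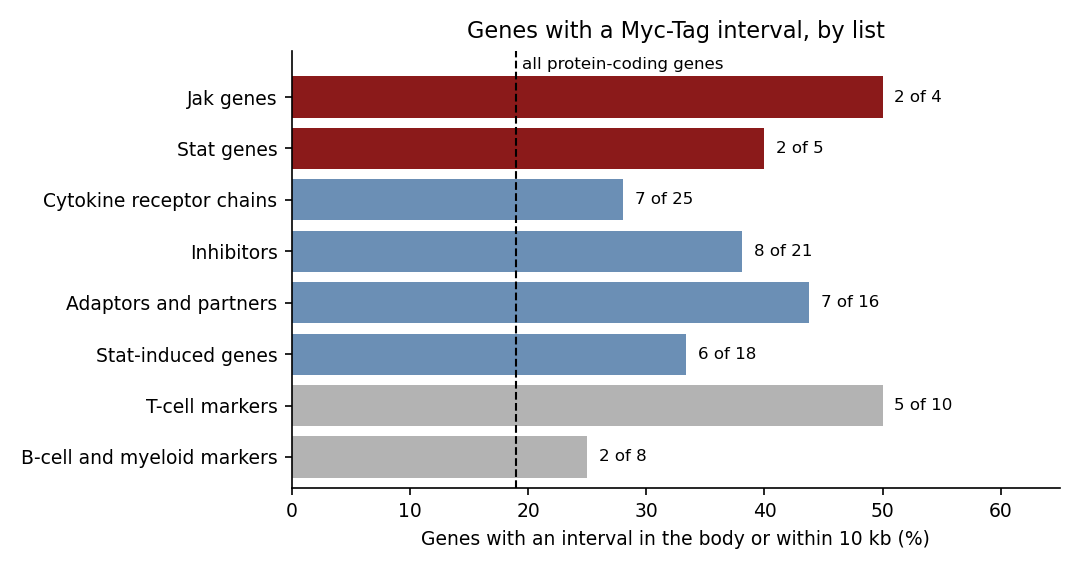
Percent of the genes of each list with a Myc-Tag interval in the gene body or within 10 kb, with the counts written beside the bars. The dashed line is the 19.0% of all protein-coding genes, the red bars are the 2 of 4 Jak and 2 of 5 Stat genes, blue bars the pathway lists and grey bars the marker lists.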

How the data were processed

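Myc-Tag ChIP and input DNA of Lck-Dlx5 T-cell lymphoma were sequenced on an Illumina GA II by Active Motif, which called peaks by MACS p-value. The processing notes of the submitters name BWA and mm9. The version of MACS, its threshold and the control of the calls are not given in the sources used here. The authors deposited 5 tracks, with the intervals and the summits of both libraries and the active regions. In the summit tracks the deposited value is a score, the peak height, and no normalization is stated.

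Here, each summit was joined to the interval holding it, with starts counted from 1. Gene bodies, starts, strands and promoter sequences were from RefSeq GRCm38.p6, without mitochondrial genes, and the 9 members were matched by symbol. Summit positions are mostly rounded, as 3329 of 3477 lie on a multiple of 16 bp, and all 7 at the members do. Groups had 1 library each, so no test between conditions was made. The named genes were the members, the genes nearest to their intervals and, per pathway list, the 4 genes with the tallest summit and any tied with them. Members and lists were chosen with earlier results of these data known. The overlap rules were tested on simulated intervals. Python 3.11.15, numpy 2.4.6, pandas 2.3.3 and matplotlib 3.10.9 were used. Alternatives were the distance, a height threshold, the overlap, the input intervals and the nearest gene. Sequence of the intervals outside promoter windows, and exons, were not analysed here. Some genes near the members or in the marker lists are not reported here.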

Additional observations from a re-analysis of the deposited data

How the results depend on the processing

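Of 23 values recomputed under alternatives for the number of Jak and Stat genes with an interval, their intervals and the share of all protein-coding genes, 15 stayed within 1.5 times the value reported and 8 did not. Allowing 50 kb around a gene gave 7 genes with an interval (all but Jak2 and Stat6) and 33.3% of all protein-coding genes. With summit heights at or above the median of 16, 1 gene, Stat4, remained with 2 intervals, and the share of all genes was 10.7%. With heights at or above the 75th percentile of 19, Stat4 again remained with 2 intervals, and the share was 6.05%. These changes follow from more or fewer intervals being counted. With 1 kb around the gene, with only intervals nearest to the member, or with the gene body only, an alternative chosen after seeing the data, Jak1, Stat4 and Stat5b remained with 5 intervals. The share of all protein-coding genes was 14.2% with 1 kb and 13.4% with the gene body only. It was not computed for the nearest-gene rule. Requiring 50% of the interval inside the region, or leaving out intervals called in the input, gave 4 genes and 7 intervals. The shares of all genes were then 18.8% and 19.0%, respectively. No paired analysis was possible because there was 1 library per group, and no replicate could be left out. Depth is unknown, so a gene without an interval is one where none was called.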
